A study of Apostichopus japonicus with 3 samples.

Results

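Messenger RNA of the sea cucumber Apostichopus japonicus after 2 h of strong light (about 2000 lux) was compared with that of animals left in natural light (about 100 lux). Each of these groups is 1 sequencing library, called light and control here, and the series holds 1 further library, from animals kept 2 h without light (dark), whose reads are given beside each value. The labels give no strain, age, sex or number of animals behind a library, and they state no light period before the exposure. The tissue is given as body wall in the characteristics and as intestine in the source field, so the tissue itself is not settled by the labels.

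The features counted are isotigs, transcripts assembled from the reads. Reads of isotigs that share their first KEGG orthology, a group of equivalent genes across species, were added up, and the 2336 orthologies with at least 50 reads summed over control and light are described, out of 3404 with a read in either library. Added to these are the 2537 isotigs whose reads averaged 100 or more over both libraries, out of 21290, of which 1312 have an orthology. Just inside the limit, the 80 orthologies with 50 to 54 reads had log2 ratios from -1.17 to 0.91, and just outside it, the 72 with 45 to 49 reads had ratios from -0.96 to 1.33. Fewer than 25 reads were found in control for 63 of the 2336 orthologies and in light for 33, so these entered through the other library.

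Most sea cucumbers lack eyes but respond to light through the skin, and this species tends to shelter from bright light. The body wall is a thick collagenous dermis under a thin epidermis, with muscle inside and with coelomocytes, the immune cells of the body fluid, wandering through it. A cell that makes secreted proteins joins amino acids to transfer RNAs with aminoacyl-tRNA synthetases, extends the chain on the ribosome with elongation factors, and folds it in the endoplasmic reticulum (ER) with chaperones and disulfide isomerases. Dual oxidases make hydrogen peroxide at the cell surface, and glutathione and peroxiredoxin enzymes remove peroxides.

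The tables held 1570290 reads in control, 1644816 in light and 1698268 in dark, and each ratio was scaled to these totals. An offset of 0.5 reads was added for log2 ratios, while folds were taken from the reads as they stand. Every fold has a 95% exact binomial (Clopper-Pearson) interval that covers counting error only. The reads carry no molecular identifiers, so repeated copies of a molecule are counted as separate reads. The interval may thus be too narrow even for counting error. At 25 reads in each library this interval runs from 0.526 to 1.73, and at 250 reads each from 0.798 to 1.14. With 1 library a group, the spread between animals is unknown, no test was possible, and "higher" or "lower" compares 2 libraries and not the conditions. In such mixed tissue, fewer cells of a type and less RNA per cell cannot be told apart.

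Summed markers of the cell types that the tissue could hold stood close together in the 2 libraries, though single markers did not always. The summed digestive markers, 7 of 9 of which were found, came to 2774 reads per 1000000 of the library total (RPM) in both control and light and to 2638 in dark; trypsin made up 2144, 2318 and 2099 of these, and chymotrypsin and carboxypeptidase B were at 0. The lipases of that list were lower in light, with 430 RPM in control, 250 in light and 417 in dark, as were alpha-amylase (14.0, 8.51 and 12.4) and sucrase or maltase (61.8, 47.4 and 35.3), while aminopeptidase N was higher (108, 134 and 53.6). Connective tissue markers (3 of 3) stood at 21332 RPM in control, 23650 in light and 20126 in dark. Nearly all of this was fibrillar collagen (20751.6, 23055.5 and 19645.3). Coelomocyte markers (4 of 5, with lysozyme at 0) stood at 11339, 10714 and 11943, mostly the mannose receptor (9797.55, 9207.11 and 11145.5). Muscle markers (5 of 7, with calponin and paramyosin at 0) stood at 5449, 5574 and 4130. Nerve markers (4 of 5) stood at 615, 586 and 299, in the same order. Within muscle, tropomyosin was lower in light (10.2, 1.22 and 2.94) and myosin heavy chain higher (2244, 2508 and 1394). Within nerve, syntaxin 1 was lower (93.6, 65.7 and 23.6) and voltage-gated channels higher (28.7, 39.5 and 25.3). Among 4 germ line markers DDX4 was found, at 111, 125 and 73 RPM, while piwi, nanos and vitellogenin were at 0. Most single markers are given here without a counting interval. The scarce ones, such as tropomyosin, alpha-amylase, voltage-gated channels and sucrase or maltase, rest on few reads, so their directions are uncertain. Aminopeptidase N, with 170 reads in control and 220 in light, had an interval of 1.01 to 1.52. The part of these marker shifts in the results below was not tested.

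Light and control were alike for most genes. Of the 2336 orthologies, 2176 (93.2%) lay within 1.5-fold of each other, against 47.1% for dark and control, and the standard deviation of the log2 ratio was 0.31 for light over control and 0.66 for dark over control. The median log2 ratio was 0.06 for light over control and -0.55 for dark over control. A dark level below control was thus usual among these orthologies, which were chosen by their control and light reads. At least 2-fold higher in light by the log2 ratio were 9 orthologies (0.385%), and at least 2-fold lower were 8 (0.342%). Among dark ratios 4 reached 2-fold upward (0.171%) and 592 downward (25.3%), around that lower median. Both comparisons use the same control library. Genes named below as lowest in dark are to be read against the same dark median. The counting interval lay above 1 for 304 orthologies (13.0%) and below 1 for 151 (6.46%), mostly by small amounts. Of all orthologies, 85 (3.64%) and 43 (1.84%) were also at least 1.5-fold apart. The counts for gene lists below are to be read against these shares, with a limit. An interval excludes 1 more easily with more reads, and median reads were 202 for all orthologies, 952 for extracellular matrix and 3153 for ribosomal proteins. Shares of lists with unlike depth are therefore not directly comparable.

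**Figure D1:**
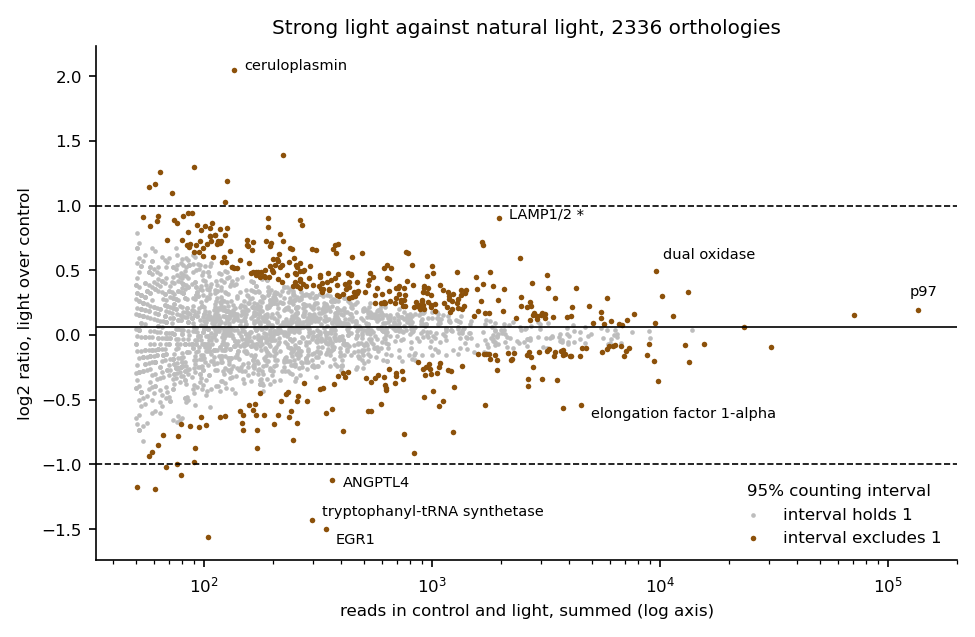
Log2 ratio of light over control against the reads summed over both libraries (log axis), with 1 point for each of 2336 orthologies. The solid line is the median of 0.06 and the dashed lines mark 2-fold; brown points have a 95% counting interval that excludes 1. The spread narrows with more reads, and ceruloplasmin stands highest; an asterisk marks a name that rests on a hit with an E-value above 1e-10.

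Ceruloplasmin, a copper-carrying oxidase of iron, stood above every other orthology in light. It had 25 reads in control, 110 in light and 23 in dark, all on 1 isotig, and was 4.20-fold higher in light (95% counting interval 2.70 to 6.77). Control and dark were thus alike and light stood alone. Next in order was an isotig named for the alpha chain of C4-binding protein, an inhibitor of complement in vertebrates, with 59 reads in control, 163 in light and 116 in dark (2.64-fold, 1.95 to 3.62). Its best hit was weak (E-value 4e-07), so that name is uncertain.

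Several of the others act inside the cell. CHMP2B, a subunit of the ESCRT-III complex that buds vesicles into endosomes, had 25, 65 and 24 reads in control, light and dark (2.48-fold, 1.54 to 4.11). SLC35C2, a carrier of the Golgi membrane, had 18, 46 and 14 reads (2.44-fold, 1.39 to 4.47). NR1D2, the nuclear receptor Rev-erb beta that represses clock genes in mammals, had 17, 40 and 16 reads (2.25-fold, 1.24 to 4.23). In these 3, as in ceruloplasmin, dark stayed close to control. A pair that handles messenger RNA followed: RNA-binding protein 25, a splicing regulator, had 18, 43 and 7 reads (2.28-fold, 1.29 to 4.20), and PAN3, a subunit of a poly(A)-trimming nuclease, had 22, 50 and 11 (2.17-fold, 1.29 to 3.76). Both were lowest in dark. SLC35C2, NR1D2, RNA-binding protein 25 and PAN3 all had under 25 reads in control and so passed the 50-read limit through the light library, where they are high.

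Collagen XVIII, a basement membrane collagen, had 37 reads in control, 89 in light and 9 in dark (2.30-fold, 1.55 to 3.47). Hydroxyproline oxidase, which breaks down the hydroxyproline released from collagen, had 39, 84 and 29 reads (2.06-fold, 1.39 to 3.09). These complete the 9. The next 6 were between 1.88-fold and 1.94-fold higher: Ras GTPase-activating protein 1, a SPRY domain-containing SOCS box protein, dTDP-glucose 4,6-dehydratase, myosin VII, a dicarboxylate carrier of the SLC13 family and an orthology named LAMP1/2, a lysosomal membrane protein. Myosin VII and the SLC13 carrier had 21 and 18 reads in control, and so also passed the 50-read limit through the light library. Reads were few for most of these 15, and 11 of them rest on 1 isotig. LAMP1/2 is the exception in depth, with 659 reads in control, 1295 in light and 235 in dark (1.88-fold, 1.71 to 2.06), though its lead isotig has a weak hit (E-value 9e-08).

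**Figure D2:**
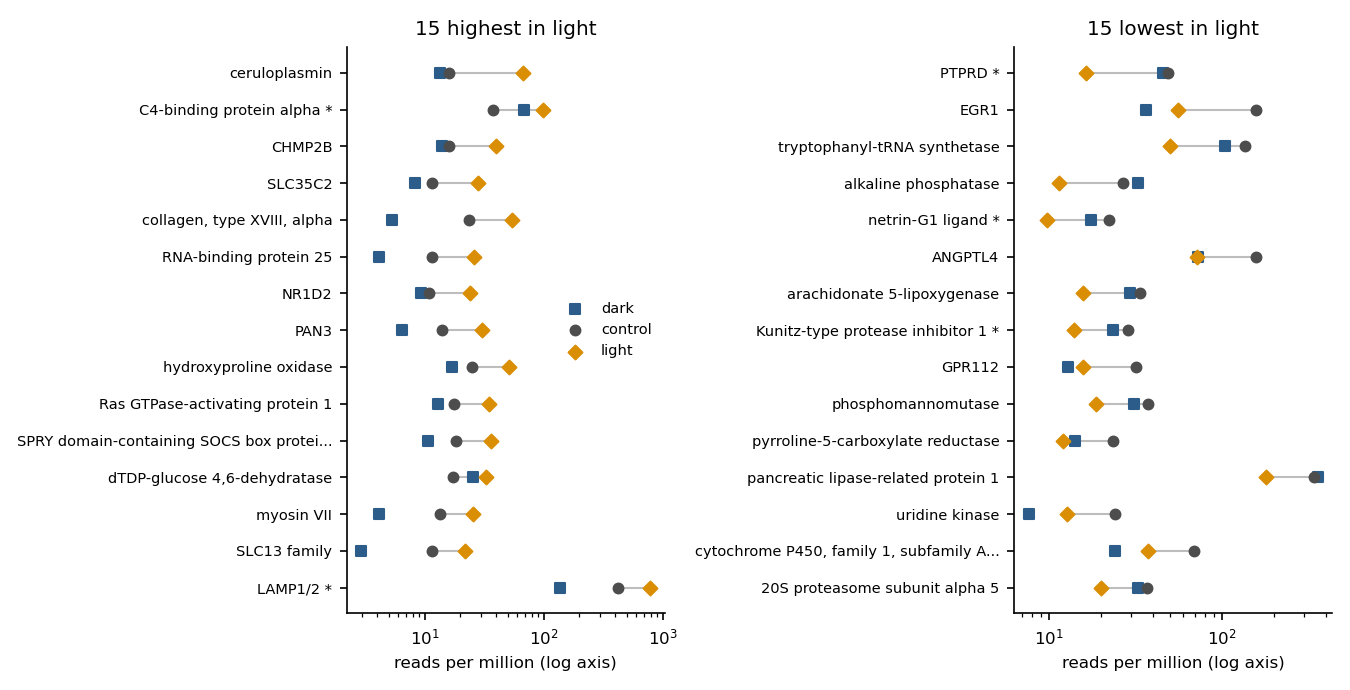
Reads per 1000000 of the library total (log axis) in control (circles), light (diamonds) and dark (squares) for the 15 orthologies with the highest and the 15 with the lowest light over control ratio among those whose 95% counting interval excludes 1; the grey line joins control and light. Ceruloplasmin, CHMP2B and NR1D2 have control and dark close together with light apart, while ANGPTL4 and EGR1 have light and dark both to the left of control. Each symbol is 1 library, and an asterisk marks an uncertain name.

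Among the 8 that were at least 2-fold lower, those with most reads were early growth response protein 1 (EGR1), tryptophanyl-tRNA synthetase and angiopoietin-like 4 (ANGPTL4). EGR1, an immediate-early transcription factor whose messenger RNA is short-lived, had 249 reads in control, 92 in light and 62 in dark, and was 2.83-fold lower in light (2.22 to 3.64). Tryptophanyl-tRNA synthetase had 214, 83 and 178 reads (2.70-fold lower, 2.09 to 3.52). ANGPTL4, an inhibitor of lipoprotein lipase in mammals, had 246, 118 and 123 reads (2.18-fold lower, 1.75 to 2.74), and 2 of its isotigs were both lower, with 199 against 89 reads and 41 against 21. Control was thus the highest library for all 3, and dark was nearer to light for EGR1 and ANGPTL4 and nearer to control for the synthetase.

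The other 5 were thinner. An orthology named receptor-type protein tyrosine phosphatase D, a cell adhesion receptor, had 77 reads in control, 27 in light and 78 in dark (2.99-fold lower, 1.90 to 4.82). Alkaline phosphatase, a brush border enzyme in vertebrates, had 42, 19 and 56 reads (2.32-fold lower, 1.32 to 4.22). Arachidonate 5-lipoxygenase, the first enzyme of leukotriene synthesis, had 53, 26 and 50 (2.14-fold lower, 1.31 to 3.56). In all 3 dark was near control and light stood apart. The remaining 2 were netrin-G1 ligand, with 35, 16 and 30 reads, and Kunitz-type protease inhibitor 1, with 45, 23 and 40. The phosphatase, netrin-G1 ligand and Kunitz names are uncertain (E-values 8e-09, 9e-06 and 9e-09). Just short of the limit came GPR112, an adhesion receptor, phosphomannomutase, an enzyme of mannose activation, and pyrroline-5-carboxylate reductase, which makes proline, at 2.01-fold, 1.99-fold and 1.94-fold lower; with the 0.5 reads added, GPR112 falls under 2-fold. Cytochrome P450 1A1, an enzyme that oxidises aromatic compounds, had 109, 62 and 41 reads (1.84-fold lower, 1.34 to 2.56). Uridine kinase, of the salvage of uridine, had 38, 21 and 13 (1.90-fold lower, 1.08 to 3.40). Alkaline phosphatase, netrin-G1 ligand, the Kunitz inhibitor, pyrroline-5-carboxylate reductase and uridine kinase all had under 25 reads in light. They thus passed the 50-read limit through the control library, where they are high.

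Genes that charge transfer RNAs lay mainly below the control level in light. Of 16 aminoacyl-tRNA synthetases, 5 had an interval below 1, against 6.46% of all orthologies, and none above 1; the median log2 ratio was -0.17, against 0.06 for all. After tryptophanyl-tRNA synthetase came the histidyl enzyme, with 109 reads in control, 74 in light and 79 in dark (1.54-fold lower, 1.14 to 2.10), and the tyrosyl enzyme with 298, 243 and 220. The asparaginyl enzyme had 407, 337 and 215 reads (1.27-fold lower, 1.09 to 1.47), and the glycyl enzyme had 501, 441 and 402 (1.19-fold lower, 1.04 to 1.36). The valyl, arginyl, alanyl and threonyl enzymes had ratios above 1, from 1.05-fold to 1.16-fold, with intervals that held 1. The list was therefore not lower throughout.

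Some elongation factors shared that direction, elongation factor 1-alpha with far more reads behind it. They are part of a list of 36 initiation and elongation factors that was not lower as a whole, with a median of 0.02. They were set apart from that list with its values known, so their number supports nothing. Elongation factor 1-alpha, which brings charged transfer RNA to the ribosome, had 2608 reads in control, 1874 in light and 4092 in dark, on 1 isotig (1.46-fold lower in light, 1.37 to 1.55). Elongation factor 2, which moves the ribosome along, had 623, 446 and 887 reads (1.46-fold lower, 1.29 to 1.66). The beta and gamma subunits of elongation factor 1, which recharge the alpha subunit with GTP, had 279, 232 and 465 reads and 314, 266 and 403 reads. All 4 were lowest in light and highest in dark. Elongation factor 1-delta did not share this, with 60, 64 and 87 reads, and an elongation factor 1 alpha-like protein was higher, with 184, 249 and 129 reads (1.29-fold, 1.06 to 1.57).

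Initiation factors lay on both sides. Translation initiation factor 2 subunit 1, the alpha subunit whose phosphorylation slows initiation, had 317 reads in control, 221 in light and 297 in dark (1.5-fold lower, 1.26 to 1.79). A subunit of eIF-2B, the exchange factor that acts on it, had 37, 71 and 30 reads (1.83-fold higher, 1.21 to 2.80), and translation initiation factor 4G, the scaffold that binds capped messenger RNA, had 1811, 2094 and 1555 (1.10-fold higher, 1.04 to 1.18). Over the 36 initiation and elongation factors, 6 intervals lay above 1 and 5 below, with a median of 0.02. Ribosomal proteins lay mostly below the control level by small amounts. Of 76 intervals, 20 (26.3%) lay below 1 and 5 (6.58%) above, against 6.46% and 13.0% of all orthologies. Their median of 3153 reads, against 202 for all, lets smaller differences exclude 1. The median log2 ratio was -0.04, against 0.06 for all. Their summed level was 80239 RPM in control, 78446 in light and 127935 in dark.

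Genes of the ER folding machinery lay mostly slightly below the control level. Of 44, 9 intervals lay below 1 and 1 above, against 6.46% and 13.0% of all orthologies, and the median log2 ratio was -0.15. HSPA5 (heat shock 70kDa protein 5, or BiP), the main chaperone of the ER, had 1939 reads in control, 1595 in light and 1771 in dark, 0.79 of the control level (0.73 to 0.84). Protein disulfide-isomerase A4, which forms disulfide bonds, had 697, 552 and 648 (0.76, 0.67 to 0.85). For both, light was the lowest library. The abundant protein disulfide-isomerase A1, with 4927, 4490 and 4008 reads, was 1.15-fold lower (1.10 to 1.20), and heat shock protein 90kDa beta (GRP94), with 3593, 3356 and 3353, was 1.12-fold lower (1.07 to 1.18). The channel subunit SEC61 alpha, through which chains enter the ER, had 100, 68 and 132 reads (1.54-fold lower, 1.12 to 2.13), and the co-chaperone DNAJC3 had 74, 50 and 44 (1.55-fold lower, 1.07 to 2.27). SRP68, a subunit of the particle that brings ribosomes to the ER, was the member above 1, with 42, 73 and 41 reads (1.66-fold higher, 1.12 to 2.49). Calreticulin and calnexin, the lectin chaperones, were level at 1281 against 1311 reads and 302 against 321. In the cytosol and mitochondria 1 of 28 chaperones had an interval below 1 and none above, with a median of 0.11, and heat shock 70kDa protein 1/8 had 908, 949 and 623 reads. The difference between these lists was not tested.

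**Figure D3:**
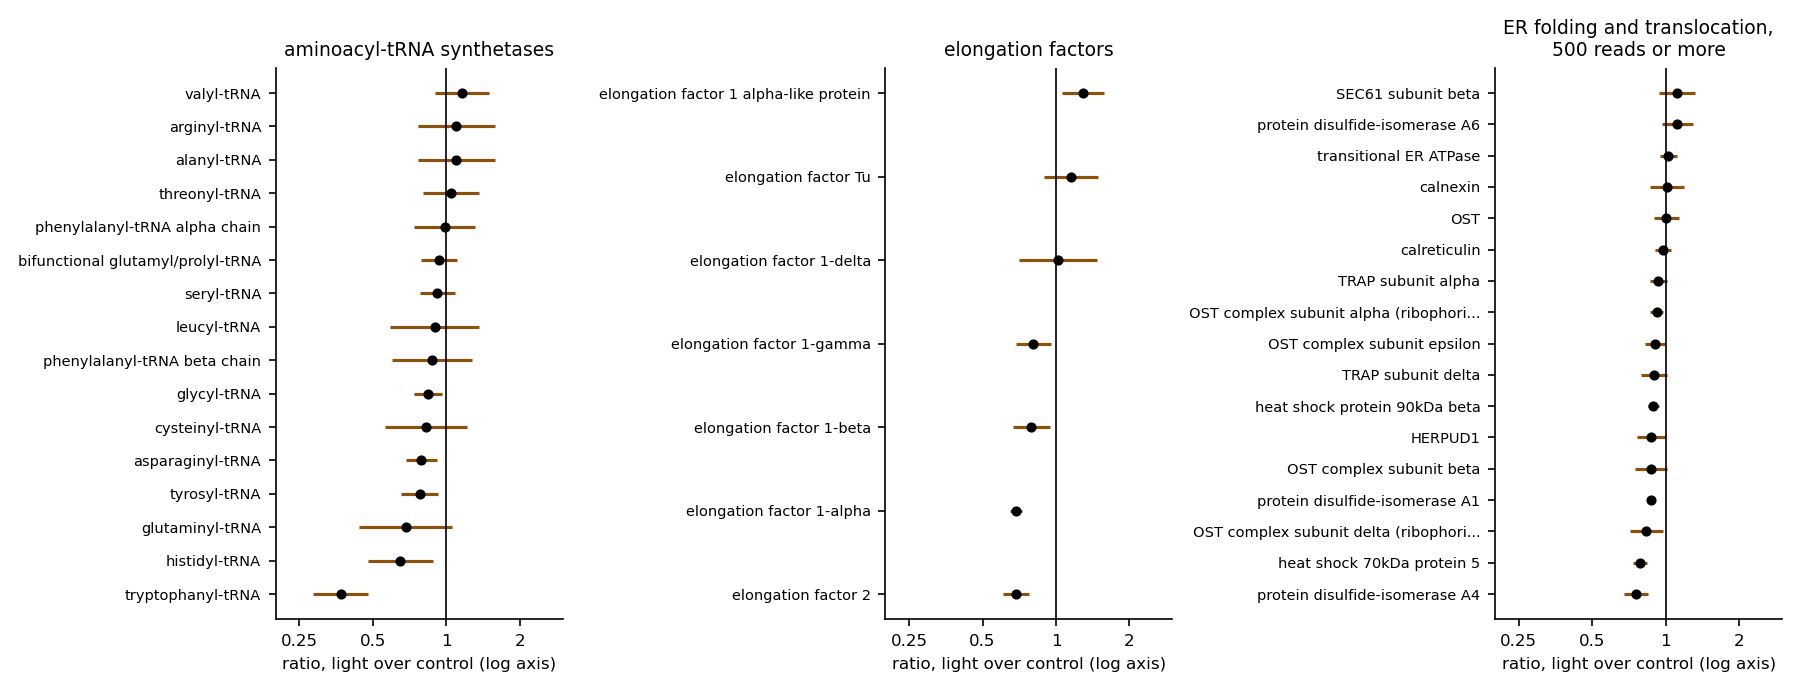
Ratio of light over control (points, log axis) with its 95% counting interval (lines) for 16 aminoacyl-tRNA synthetases, 7 elongation factors and the ER folding and translocation orthologies with at least 500 reads summed over both libraries. Tryptophanyl-tRNA synthetase lies farthest to the left, elongation factors 1-alpha and 2 both lie 1.46-fold below the control level, and most abundant ER genes lie between 0.76 and 1.

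Enzymes that supply amino acids included several of the lower genes; this list was drawn up after its values had been seen, so its counts support nothing. Asparagine synthase had 250 reads in control, 156 in light and 100 in dark (1.68-fold lower, 1.37 to 2.06). Phosphoserine phosphatase, the last step of serine synthesis, had 105, 66 and 106 (1.67-fold lower, 1.21 to 2.30). The homocysteine methyltransferase that regenerates methionine had 123, 80 and 58 (1.61-fold lower, 1.21 to 2.16), and ChaC, which cleaves glutathione in mammals, had 58, 37 and 70 (1.64-fold lower, 1.07 to 2.55). Light was below control in each, while dark lay anywhere from below light to above control. Ornithine decarboxylase, which opens polyamine synthesis, was higher, with 74, 110 and 42 reads (1.42-fold, 1.05 to 1.93). Of the 25 members, 6 intervals lay below 1 and 2 above.

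Redox enzymes followed. Of 25 antioxidant enzymes and NADPH oxidases, 8 intervals lay above 1, against 13.0% of all orthologies, and 1 below, with a median log2 ratio of 0.15. Dual oxidase carried most of the reads, with 3885 in control, 5725 in light and 2217 in dark (1.41-fold higher, 1.35 to 1.47), and its 2 main isotigs were both higher, at 3750 against 5513 reads and 134 against 212. An orthology named thyroid peroxidase, a heme peroxidase, had 1149, 1591 and 667 reads (1.32-fold higher, 1.22 to 1.43). For both, light was the highest library and dark the lowest.

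Other thiol and glutathione proteins, with the peroxiredoxins that remove peroxides among them, followed with smaller or less certain differences. Selenoprotein W, a small thiol protein, had 1377 reads in control, 1852 in light and 1665 in dark (1.28-fold higher, 1.20 to 1.38). Peroxiredoxin 5 had 388, 558 and 495 reads (1.37-fold, 1.20 to 1.57), peroxiredoxin 6 had 114, 157 and 59 (1.31-fold, 1.03 to 1.69), and glutathione S-transferase had 1226, 1498 and 1223 (1.17-fold, 1.08 to 1.26). The catalytic subunit of glutamate-cysteine ligase, the rate-limiting enzyme of glutathione synthesis, had 29, 51 and 33 (1.68-fold, 1.04 to 2.75). Each of these was higher in light than in control, and peroxiredoxin 6 alone of the 5 was well below control in dark. Cu/Zn superoxide dismutase, which turns superoxide into peroxide, stood on the other side with 345, 277 and 371 reads (1.30-fold lower, 1.11 to 1.53), and catalase, at 469, 558 and 582, had an interval that ended just above 1 at its lower bound and at 1.29 at its upper. Nuclear factor erythroid 2-related factor 1/3, a transcription factor of the stress-response type, had 603, 804 and 377 reads (1.27-fold higher, 1.14 to 1.42).

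Metal carriers differed in direction. Beside ceruloplasmin, the copper chaperone that hands copper to export pumps was 1.20-fold higher (1.05 to 1.37), with 398 reads in control, 500 in light and 575 in dark. Hephaestin, a membrane oxidase of the same family as ceruloplasmin, was lower, with 986, 710 and 463 reads (1.45-fold lower, 1.32 to 1.60). Melanoma-associated antigen p97, a transferrin-family iron binder, was the orthology with most reads of all, at 61488, 73420 and 30908 (1.14-fold higher, 1.13 to 1.15). It took 3.92% of all reads in control, 4.46% in light and 1.82% in dark. The 8 members gave 3 intervals above 1 and 1 below, against 13.0% and 6.46% of all orthologies. The 3 zinc carriers had intervals that held 1.

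Of 20 extracellular matrix genes, 11 intervals lay above 1 and 3 below, against 13.0% and 6.46% of all orthologies. The median log2 ratio was 0.20. Median reads were 952 here against 202 for all, and more reads narrow the interval. The fibrillar collagens, the bulk of the dermis, had 32586 reads in control, 37922 in light and 33363 in dark, summed over 4 isotigs (1.11-fold higher, 1.09 to 1.13). Collagen IV, the network collagen of basement membranes, had 785, 1071 and 411 reads (1.30-fold, 1.19 to 1.43), and nidogen, which links that network to laminin, had 1819, 2454 and 821 (1.29-fold, 1.21 to 1.37). For the basement membrane pair, dark was far below both other libraries, while for the fibrillar collagens it was near control.

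Laminin beta 1 had 139, 236 and 95 reads (1.62-fold higher, 1.31 to 2.01) and laminin gamma 1 had 432, 561 and 209 (1.24-fold, 1.09 to 1.41). Agrin, a heparan sulfate proteoglycan of the same sheet, had 263, 373 and 168 (1.35-fold, 1.15 to 1.59), and chondroitin sulfate proteoglycan 4, a membrane proteoglycan, had 943, 1493 and 314 (1.51-fold, 1.39 to 1.64). Laminin alpha 1/2, with 106 reads in control and 101 in light, had an interval that held 1. These members were picked out as basement membrane parts after their values were seen, so their number supports nothing. The 3 below 1 were neurocan (141, 95 and 497 reads, E-value 7e-09), collagen VI (487, 424 and 457, E-value 2e-09), and tenascin (6424, 6390 and 7870). Of these, neurocan was highest in dark by a wide margin.

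Adhesion genes gave 9 intervals above 1 and 1 below among 27, against 13.0% and 6.46% of all orthologies, with a median of 0.16. Filamin, an actin cross-linker, had 1308 reads in control, 1891 in light and 1073 in dark (1.38-fold, 1.29 to 1.48). A seven-pass cadherin of the CELSR type, which orients cells in a sheet, had 187, 304 and 35 (1.55-fold, 1.29 to 1.87), and tight junction protein 1, a junction scaffold, had 456, 626 and 285 (1.31-fold, 1.16 to 1.48). All 3 were lowest in dark. Integrin beta 1 and talin, the receptor for matrix and its link to actin, were level at 1299 against 1425 and 714 against 754 reads. Slit 2, a guidance ligand with an uncertain name (E-value 1e-06), had 68, 118 and 62 reads (1.66-fold, 1.22 to 2.27).

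The Notch, Wnt, BMP and TGF-beta pathways held 15 members, with 6 intervals (40%) above 1, 2 (13.3%) below and a median of 0.04. Among all orthologies the shares were 13.0% and 6.46%. Among ligands and their blockers, jagged, a Notch ligand (E-value 3e-10), had 89 reads in control, 173 in light and 15 in dark (1.86-fold higher, 1.43 to 2.42), and chordin, which binds and blocks BMPs, had 1663, 1372 and 1178 (1.27-fold lower, 1.18 to 1.36). Of the receptors, frizzled 9/10, for Wnt, had 309, 404 and 125 (1.25-fold higher, 1.07 to 1.45) and frizzled 1/7, an uncertain name (E-value 6e-07), had 520, 455 and 344 (1.20-fold lower, 1.05 to 1.36). The frizzled 1/7 isotig with the stronger hit (E-value 6e-175) had 71 against 60 reads, with an interval that held 1 (0.56 to 1.15). Whether members of 1 receptor family stood on opposite sides is thus uncertain. Downstream, SMAD2/3, the transcription factor of activin and TGF-beta, had 93, 176 and 59 reads (1.81-fold higher, 1.40 to 2.35). APH-1, a subunit of the gamma-secretase that cuts Notch, had 81, 131 and 87 (1.54-fold, 1.16 to 2.06), whereas the other subunits presenilin 1, nicastrin and presenilin enhancer 2 had intervals that held 1.

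General signalling genes through which photoreceptors also work were nearly level. Of 22 G protein, cyclic nucleotide and phototransduction orthologies, 1 interval lay below 1 and none above, against 6.46% and 13.0% of all orthologies. That member was beta-arrestin, which quenches activated G protein-coupled receptors, with 649 reads in control, 561 in light and 529 in dark (1.21-fold lower, 1.08 to 1.36). The alpha subunit of Gq, which couples to the opsins of many invertebrates, had 321 against 358 reads, and cyclic nucleotide gated channel alpha 3 had 95 against 100. Recoverin, a calcium sensor of vertebrate photoreceptors, had 27 against 38, too few to tell a difference of this size.

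Among 6 retinoid and carotenoid genes 2 intervals lay above 1 and none below, against 13.0% and 6.46% of all orthologies. Their median was 0.24. Retinol dehydrogenase 12 had 37 reads in control, 69 in light and 33 in dark (1.78-fold, 1.18 to 2.73, E-value 8e-10) and retinol dehydrogenase 11 had 142, 187 and 114 (1.26-fold, 1.01 to 1.57); these reductases act on retinal in the vertebrate retina. Of 6 clock and photolyase genes, NR1D2 and casein kinase 1 alpha were above 1, the latter with 221, 302 and 144 reads (1.30-fold, 1.09 to 1.56). The other 2 orthologies of the NR1D group were level, at 58 against 56 and 194 against 198 reads, and timeless had 62 against 58. In the 38 genes of DNA replication and repair the median was 0.10, with 3 intervals above 1 and 1 below. The Werner syndrome helicase had 81, 141 and 64 reads (1.66-fold, 1.26 to 2.21), DNA topoisomerase I, which unwinds DNA, had 91, 151 and 126 (1.58-fold, 1.21 to 2.08), and PCNA, the sliding clamp, had 152, 123 and 190 (1.29-fold lower, 1.01 to 1.66).

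Stress and immediate-early transcription factors did not follow EGR1. Of the 8, the fos-like factor had 203 reads in control, 190 in light and 101 in dark, and AP-1 (jun) had 26, 29 and 44; both intervals held 1. Activating transcription factor 5, a stress factor of abundant messenger RNA here, had 4493, 5018 and 3754 (1.07-fold higher, 1.02 to 1.11), and hypoxia-inducible factor 1 alpha had 585, 709 and 374 (1.16-fold, 1.04 to 1.29). EGR1 was the single member with an interval below 1, and the list median was 0.03.

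Immune genes were divided. Of 18 complement, lectin and scavenger receptor orthologies, 6 intervals (33.3%) lay below 1 and 4 (22.2%) above. The shares of all orthologies were 6.46% and 13.0%, and median reads were 688.5 here against 202 for all. Collectin 12, a scavenger receptor lectin, had 465 reads in control, 286 in light and 373 in dark (1.70-fold lower, 1.47 to 1.98). Complement component 4 had 7046, 6378 and 8259 (1.16-fold lower, 1.12 to 1.20), and complement component 3, the center of the cascade, was level between the 2 libraries at 1811 against 1839. Complement component 6, of the membrane attack complex, was higher with 38, 65 and 23 (1.63-fold, 1.08 to 2.51). Among 25 apoptosis, TNF and NF-kappa-B genes 5 intervals (20%) lay above 1 and none below, though the median was -0.03. NF-kappa-B p105, the precursor of a subunit, had 303, 408 and 158 reads (1.29-fold, 1.11 to 1.5), NF-kappa-B inhibitor zeta had 522, 766 and 279 (1.40-fold, 1.25 to 1.57), and the adaptor TRAF1 had 32, 55 and 14 (1.64-fold, 1.04 to 2.62). All 3 were lowest in dark.

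Lipid genes lay on both sides. Of those higher, carnitine O-palmitoyltransferase 1, the gate of fatty acid oxidation, had 171 reads in control, 272 in light and 61 in dark (1.52-fold, 1.25 to 1.85), and carnitine O-acetyltransferase had 25, 49 and 20 (1.87-fold, 1.13 to 3.16), a difference that lay in 1 of its 2 main isotigs (8 against 30 reads) and not in the other (17 against 19). Apolipoprotein B, the scaffold of secreted lipoproteins, had 5739, 7552 and 1251 (1.26-fold, 1.21 to 1.30). Dark was the lowest library for all 3. Acetyl-CoA C-acetyltransferase, the thiolase of the last step of fatty acid breakdown, was lower with 40, 23 and 39 reads (1.82-fold lower, 1.06 to 3.19). With only 23 reads in light, this thiolase passed the limit on summed reads through the control library, where it is high. Both lipases were lower, pancreatic lipase-related protein 1 with 533, 297 and 607 reads (1.88-fold lower, 1.63 to 2.17) and pancreatic lipase-related protein 2 with 53, 34 and 49 (1.63-fold lower, 1.04 to 2.59). Over the 47 lipid genes 5 intervals lay above 1 and 8 below, with a median of -0.02. Digestive enzymes, 10 in number and holding both lipases, gave 3 above and 3 below; trypsin had 3366, 3812 and 3565 reads (1.08-fold, 1.03 to 1.13) and enterokinase, its activator in vertebrates, 35, 61 and 30 (1.66-fold, 1.08 to 2.60).

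In sugar metabolism 6 of 22 intervals (27.3%) lay above 1 and 1 (4.55%) below, with a median of 0.13. Among all orthologies the shares were 13.0% and 6.46%. Glyceraldehyde 3-phosphate dehydrogenase had 56 reads in control, 98 in light and 43 in dark (1.67-fold, 1.19 to 2.36), while phosphoglycerate kinase, the next enzyme of glycolysis, had 125, 85 and 98 (1.54-fold lower, 1.16 to 2.05). Consecutive steps thus stood on opposite sides. Pyruvate carboxylase, which feeds the citrate cycle, had 38, 68 and 45 (1.71-fold, 1.13 to 2.61), and fructose-bisphosphate aldolase had 1194, 1493 and 1136 (1.19-fold, 1.11 to 1.29). Respiratory chain and ATP synthase genes had a median of 0.11, with 5 of 58 intervals above 1 and 3 below. NADH dehydrogenase 1 beta subcomplex 9, of complex I, had 89, 58 and 82 reads (1.61-fold lower, 1.14 to 2.28). That difference lay in 1 of its 2 isotigs (50 against 21 reads) and not in the other (39 against 37).

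**Figure D4:**
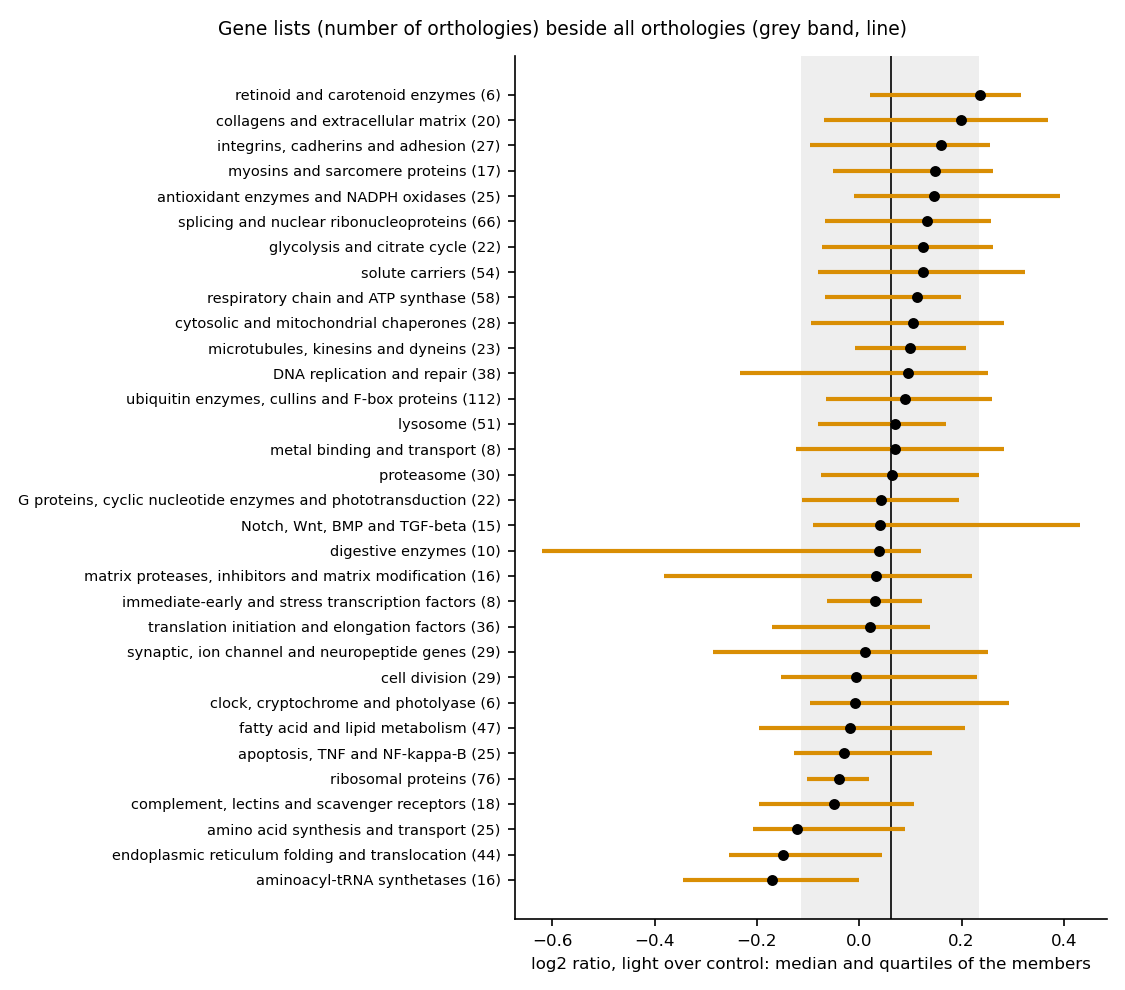
Median (point) and quartiles (line) of the log2 ratio of light over control for each gene list of at least 6 orthologies, with its number of members in parentheses; the grey band and line are the quartiles and median of all 2336 orthologies. Aminoacyl-tRNA synthetases at -0.17 and the ER list at -0.15 lie lowest, and retinoid genes at 0.24 and extracellular matrix at 0.20 lie highest. The amino acid list was drawn up after its values were seen.

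The orthologies with most reads differed little between the 2 libraries. Beside p97 and the fibrillar collagens, ficolin, a lectin of innate immunity, had 11072 reads in control and 12133 in light over 105 isotigs, the mannose receptor had 15385 and 15144, cofilin, which severs actin, had 7813 and 7815, and cubilin, an endocytic receptor, had 6665 and 7167. Ratios for these 4 lay between 0.94 and 1.05. The 3 isotigs with most reads had no name and together took 7.17% of reads in control, 6.39% in light and 12.4% in dark.

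At the level of single isotigs the spread was wider. The 2537 well-counted isotigs held 13 with a log2 ratio of 1 or more (0.512%) and 21 with -1 or less (0.828%), and the standard deviation of the ratio was 0.37. By the 1.5-fold limit with an interval that excluded 1, 78 were higher (3.07%) and 83 lower (3.27%). The lowest differed far more than any orthology did. Fewer than 100 reads were found in control for 150 of the 2537 isotigs and in light for 77, so these entered through the other library. Every isotig named as lower here and in the next paragraph had under 100 reads in light. These thus passed the limit through the control library, where they are high. An isotig with a weak hit to thyroglobulin (isotig21096, E-value 6e-08) had 283 reads in control, 5 in light and 22 in dark, 59.3-fold lower (25.1 to 184), and reads covered 97.6% of its length in control, 31.6% in light and 85.1% in dark. Unnamed isotig15721 had 388, 15 and 405 reads (27.1-fold lower, 16.2 to 48.9), with 98.8%, 27.0% and 98.8% of its length covered. Unnamed isotig04641 had 427, 20 and 520 (22.4-fold lower, 14.3 to 37.0). In the last pair control and dark were alike and light stood apart, whereas the thyroglobulin-like isotig was low in both.

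Next came isotig17281 with 233, 33 and 104 reads (7.40-fold lower, 5.12 to 11), isotig16746 with 255, 48 and 67 (5.56-fold lower, 4.07 to 7.74) and isotig06174 with 234, 75 and 177 (3.27-fold lower, 2.51 to 4.30), none of them named. At the other end isotig03191, a ficolin, had 74, 257 and 155 reads (3.32-fold higher, 2.55 to 4.35), unnamed isotig14529 had 345, 919 and 903 (2.54-fold, 2.24 to 2.89), and isotig01249, named for an endothelial receptor tyrosine kinase, had 240, 583 and 361 (2.32-fold, 1.99 to 2.71). For isotig14529 dark and light were alike and control was low. The main LAMP1/2 isotig, isotig13012, had 369, 968 and 79 reads (2.50-fold, 2.22 to 2.83).

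Some isotigs of 1 orthology stood on opposite sides of 1 while their sum differed less. Among the 622 orthologies with at least 2 isotigs of 50 reads or more, 16 (2.57%) held isotigs on both sides, each at least 1.5-fold apart with an interval that excluded 1, and in 15 of these 16 the sum lay within 1.5-fold. For cytochrome c oxidase subunit 5a (COX5a), a subunit of respiratory complex IV, isotig09535 had 190 reads in control, 81 in light and 277 in dark (2.46-fold lower, 1.88 to 3.23), and isotig09536 had 86, 243 and 165 (2.70-fold higher, 2.10 to 3.49). Isotig numbers are adjacent and lengths alike, 1250 and 1167 bases, and the summed reads were 1.12-fold apart (0.95 to 1.32). The order of the pair was reversed in light against both other libraries.

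Galectin-9, a sugar-binding immune protein, held isotigs of 2865 and 2878 bases that differed in opposite directions without changing order: isotig07141 had 41, 16 and 28 reads (2.68-fold lower, 1.47 to 5.12) and isotig07140 had 116, 212 and 151 (1.74-fold higher, 1.38 to 2.21). Their sum was not level, at 1.39-fold higher (1.13 to 1.71). For ribophorin II, the delta subunit of the enzyme that attaches sugar chains in the ER, isotig06070 had 93, 55 and 125 reads (1.77-fold lower, 1.26 to 2.52) and isotig06071 had 12, 43 and 28 (3.42-fold higher, 1.77 to 7.13). Histone H3 gave 265, 153 and 273 reads for isotig01387 (1.81-fold lower, 1.48 to 2.23) and 43, 71 and 91 for isotig01384 (1.58-fold higher, 1.06 to 2.36). Over the 16 orthologies 31 such isotigs were higher and 31 lower, and ficolin held 14 of the former and 7 of the latter. Only uniquely assigned reads are counted, so how near-identical isotigs share reads is uncertain, and whether such pairs are splice forms, alleles or copies of a gene was not tested.

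**Figure D5:**
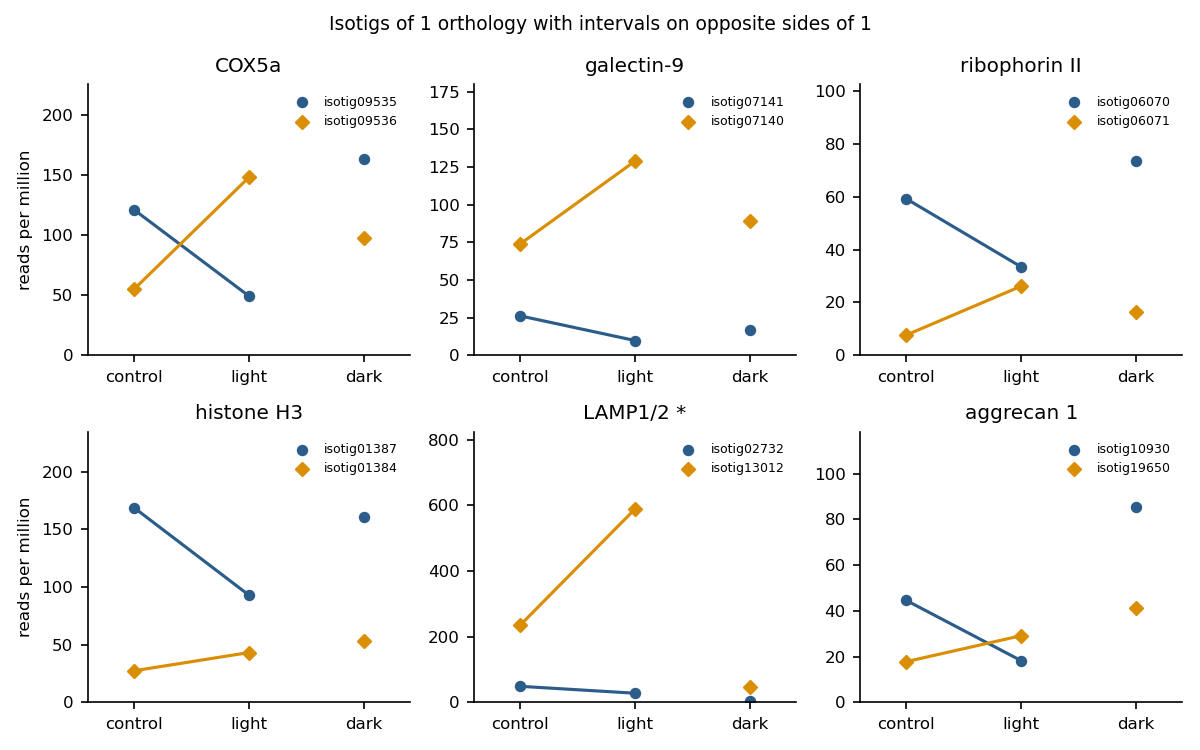
Reads per 1000000 of the library total in control, light and dark for 6 orthologies. Each holds 1 isotig at least 1.5-fold lower in light (blue circles) and 1 at least 1.5-fold higher (orange diamonds). The counting intervals of both exclude 1. Lines join control and light, and each point is 1 library. The COX5a pair changes order in light, from 190 and 86 reads in control to 81 and 243.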

How the data were processed

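Per the labels' protocols, poly(A) RNA was captured on oligo(dT) beads, broken up and primed with random hexamers, with no strand marking recorded, so a gene and an antisense partner cannot be told apart. The submitters' processing notes name CASAVA 1.5, while names of the assembler and aligner were not given in the sources used here. Per the file headers, the authors deposited counts of uniquely assigned reads per isotig, RPKM, and the percent of each isotig covered. Counts summed to the header totals. Isotigs absent from a table were taken as 0.

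Reads were summed over the first KEGG orthology with pandas 2.3.3 and ratios scaled to header totals; intervals came from SciPy 1.17.1. Of the orthologies, 1116 hold 1 isotig, 189 have a lead isotig whose E-value is above 1e-10, making the name uncertain, and 11 have no name. Named genes were the 15 highest and 15 lowest with an interval excluding 1, the 10 with most reads, 12 highest and 12 lowest isotigs, and, for each of 34 lists, the 2 with most reads, the 2 highest, the 2 lowest and any at least 1.5-fold apart; this gave 181 orthologies, of which those that matter to each list are printed, and other members named were chosen after their values were seen. Members and lists were chosen with earlier results of these data known. The steps were tested on simulated data.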

Additional observations from a re-analysis of the deposited data

How the results depend on the processing

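No paired analysis was possible because each group has 1 library, and for the same reason no library could be left out. The counts of genes past the limit depend on the limits chosen. With a limit of 1.5-fold, 101 orthologies were higher and 59 lower, and 78 isotigs were higher and 83 lower; with 3-fold, 1 and 0 orthologies and 1 and 6 isotigs. Requiring 1, 20 or 200 reads summed over both libraries gave 147, 45 or 1 orthologies higher and 106, 25 or 3 lower. Leaving out isotigs with E-values above 1e-10 left 5 lower. With a mean of at least 50 reads 40 isotigs were higher and 50 lower, with 200 reads 6 and 4, and among isotigs with an orthology 7 and 9. Another scaling kept these counts within 1.5 times: TMM factors (edgeR 4.0.16) shifted every log2 ratio by -0.02, median-of-ratios factors by 0.01 and totals without the 20 most abundant isotigs by less than either. Here no alternative run reversed a named gene whose counting interval excludes 1, and the list medians moved by less than 0.1, those near 0 possibly changing sign. Among the 181 orthologies taken by the naming rule, summing RPKM in place of reads moved 5 log2 ratios outside their counting interval: LAMP1/2 from 0.91 to 1.14, selenoprotein W from 0.36 to 0.55, apolipoprotein B from 0.33 to 0.44, myosin heavy chain from 0.16 to 0.28 and the mannose receptor from -0.09 to -0.15. The E-value limit moved 3, Notch from 0.14 to 0.32, myosin heavy chain to 0.23 and the SLC32 carrier from 0.30 to 0.04, and TMM moved p97 from 0.19 to 0.17. Depth limits most members: the median was 202 reads per orthology over both libraries.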

Other observations

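Genes that process messenger RNA lay near the share over all orthologies. Of 66 splicing and nuclear ribonucleoprotein orthologies 12 intervals (18.2%) lay above 1 and 3 (4.55%) below, against 13.0% and 6.46% of all orthologies, with a median log2 ratio of 0.13. The 116 kDa U5 component, a GTPase of the spliceosome, had 44 reads in control, 79 in light and 42 in dark (1.71-fold higher, 1.17 to 2.54), and U1 small nuclear ribonucleoprotein A had 32, 54 and 26 (1.61-fold, 1.02 to 2.58). LSm6, of the ring that binds U6 RNA, stood lower with 91, 57 and 94 (1.67-fold lower, 1.19 to 2.37). Dark was close to control for all 3. Among 112 ubiquitin enzymes, cullins and F-box proteins 14 intervals (12.5%) lay above 1 and 1 below, with a median of 0.09, so that the share above 1 was that of all orthologies. RanBP2, a SUMO ligase of the nuclear pore, had 72, 122 and 66 reads (1.62-fold higher, 1.20 to 2.20). Of 30 proteasome subunits 1 lay above and 1 below; the 20S subunit alpha 5 had 58, 33 and 56 reads (1.84-fold lower, 1.18 to 2.91).

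Secretory and nerve-related genes were divided. Among all orthologies 13.0% of intervals lay above 1 and 6.46% below. Of 29 synaptic, ion channel and neuropeptide orthologies 2 intervals lay above 1 and 5 below; SNAP-23, which drives fusion of vesicles with the cell membrane, had 155 reads in control, 101 in light and 81 in dark (1.61-fold lower, 1.24 to 2.09), and SNAP-29, of endosome fusion, had 106, 157 and 67 (1.41-fold higher, 1.10 to 1.83). Of 51 lysosomal genes 6 lay above 1 and 5 below, with lysosomal alpha-glucosidase, which breaks down glycogen, at 43, 75 and 24 reads (1.67-fold higher, 1.13 to 2.48) and Niemann-Pick C2 protein, a cholesterol carrier, at 345, 250 and 326 (1.45-fold lower, 1.22 to 1.71). Myosins and sarcomere proteins gave 6 of 17 (35.3%) above and none below, with median reads of 749 against 202 for all orthologies. Myosin heavy chain had 3524, 4126 and 2368 reads (1.12-fold, 1.07 to 1.17). D-dopachrome decarboxylase, 1 of 3 orthologies in a pigment list, had 138, 230 and 251 reads (1.59-fold, 1.28 to 1.98), so that light and dark both stood above control.

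Of the remaining lists, that of matrix proteases and inhibitors spread to both sides, and the others were closer to level. In that list 18.8% of intervals lay above 1 and 25% below, against 13.0% and 6.46% of all orthologies. Of 54 solute carriers 8 intervals lay above 1 and 3 below, among the latter an SLC6 carrier of the GABA type with 48, 29 and 35 reads (1.73-fold lower, 1.07 to 2.85), of 23 microtubule and motor genes 2 and 2, of 16 matrix proteases and inhibitors 3 and 4, and of 29 cell division genes 4 and 1. Matrix metalloproteinase-20, a protease of secreted matrix, had 88, 60 and 24 reads (1.54-fold lower, 1.09 to 2.17). Cyclin-dependent kinase 1, which drives entry into mitosis, had 102 reads in control, 154 in light and 100 in dark (1.44-fold higher, 1.12 to 1.87). The 1 germ line orthology, DDX4, had an interval that held 1.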
